A study of Mus musculus with 82 samples.

Results

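The mRNAs of 10 genes that make, move or break down the ceramides of the skin's permeability barrier were followed through 82 libraries of mouse ear skin. The genes were chosen by name from the 56941 genes listed in each of the deposited tables: Elovl4, Cyp4f39, Slc27a4, Degs2, Cers3, Pnpla1, Ugcg, Abca12, Sdr9c7 and Acer1. All 10 were tested in both experiments. All mice were female and of strain C57BL/6J Rj, and every library came from a punch of the right ear. Imiquimod, a TLR7 agonist that inflames skin, was applied to the ears as a 5% cream once daily on days 0 to 7, and IDOR-1117-2520, an orally available small-molecule antagonist of the chemokine receptor CCR6, was dissolved in the drinking water. In the time course, ears were labelled day 2, day 5 or day 8 and came from mice given imiquimod with the drug, imiquimod alone, or neither (named sham in the titles and vehicle in another label). In this experiment the drug was started at least a day before imiquimod. In the start-day experiment, drug treatment began on day 0, day 3 or day 5 of imiquimod, beside mice given imiquimod alone and sham mice. Groups held 6 libraries each, except the sham group of day 5 with 4. The time label of the start-day groups read day 8 for the drug from day 0, day 5 for the drug from day 3 and day 3 for the drug from day 5, and day 8 for imiquimod and sham. Day 3 lies before the start of the drug from day 5, so there it cannot be a day of collection counted from the first imiquimod. The labels do not say what the days of the drug groups count, nor on which day those ears were collected. The inflammation is set off by 1 agent, and an ear punch holds cartilage, muscle, fat and sebaceous glands beside epidermis.

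The outermost layer of the epidermis keeps water in by stacking sheets of ceramide, cholesterol and free fatty acid between dead, flattened keratinocytes. The ceramides that hold these sheets together carry an unusually long acyl chain with a linoleate at its end, and are called acylceramides. Their fatty acid is elongated, hydroxylated at its far end and activated with coenzyme A. A dedicated ceramide synthase then joins it to a sphingoid base, linoleate is added, and the lipid is glucosylated and packed into lamellar granules for release. Loss of several of these genes in mice or humans causes ichthyosis, a scaling disorder with a leaking barrier.

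The time course libraries held 13.1 M to 35.4 M estimated counts each, those of the start-day experiment 24.1 M to 35.5 M, and no pair of libraries of a group looked like a copy. Levels are in CPM, counts divided by the size of their library after TMM scaling (trimmed mean of M values), and were scaled within each experiment, so levels are not compared between experiments. Differences are log2 fold changes with their standard errors (SE) from edgeR's quasi-likelihood test, and a gene was called where the p-value adjusted over all tested genes by the Benjamini-Hochberg method was under 0.05. Nothing in the labels says that each library is a separate mouse, so these p-values measure the spread between libraries, which may be technical. The labelled tissue carried its markers, with none of the 6 basal keratinocyte, 5 spinous or 6 granular keratinocyte markers at 0 in any group. The same held for 7 sebocyte, 6 leukocyte, 5 skeletal muscle, 5 cartilage and 4 adipocyte markers, whereas 7 hair follicle keratins were near 0, with a summed level of 0.652 to 12.2 CPM. Imiquimod libraries 9 and 11 of day 2 stood apart in leukocyte markers, whose summed level was 147 and 142 CPM there and 85.5 to 93.05 CPM in the other 4 libraries of that group. Drug library 36 of day 5 stood apart too, at 284 CPM of leukocyte and 2143 CPM of granular markers, against 97.00 to 177 and 3547 to 6253 CPM in the other 5. Because the punches are bulk tissue, a lower level from fewer cells of a type and one from less RNA per cell cannot be told apart.

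The promoter windows of 5 of the genes are shown because these genes moved in opposite directions under imiquimod: Cers3 and Degs2 rose most, while Acer1 fell, Slc27a4 fell from day 5 on and Elovl4 changed sign between days 2 and 8. Each line is the 250 bases before the RefSeq transcription start on build GRCm38.p6, read 5′ to 3′ in the direction of the gene, a build that differs from the GRCm39 of the counts. Capitals mark matches to any of 6 short motifs searched on both strands: TGANTCA (AP-1), AACNNGTT (grainyhead-like), GCCNNNGGC (TFAP2), TTGCNNAA (C/EBP), GGGNGTG (KLF) and TTCNNNGAA (STAT). No match overlapped another.
Cers3 (chr7:66743254-66743503, plus strand): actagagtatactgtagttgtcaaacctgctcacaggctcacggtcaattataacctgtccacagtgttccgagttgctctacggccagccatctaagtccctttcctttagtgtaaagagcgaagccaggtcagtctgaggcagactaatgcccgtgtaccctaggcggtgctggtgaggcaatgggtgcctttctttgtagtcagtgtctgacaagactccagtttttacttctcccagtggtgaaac
Degs2 (chr12:108702307-108702556, minus strand): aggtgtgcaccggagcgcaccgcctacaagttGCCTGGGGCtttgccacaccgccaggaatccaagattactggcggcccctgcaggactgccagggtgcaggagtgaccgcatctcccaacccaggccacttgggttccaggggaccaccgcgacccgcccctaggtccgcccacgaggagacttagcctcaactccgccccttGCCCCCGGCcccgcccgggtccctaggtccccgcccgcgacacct
Elovl4 (chr9:83806306-83806555, minus strand): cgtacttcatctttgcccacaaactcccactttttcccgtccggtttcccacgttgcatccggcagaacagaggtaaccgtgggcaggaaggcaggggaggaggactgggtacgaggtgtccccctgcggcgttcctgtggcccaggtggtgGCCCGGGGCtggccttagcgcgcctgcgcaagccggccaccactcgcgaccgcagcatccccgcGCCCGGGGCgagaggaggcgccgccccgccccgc
Slc27a4 (chr2:29802384-29802633, plus strand): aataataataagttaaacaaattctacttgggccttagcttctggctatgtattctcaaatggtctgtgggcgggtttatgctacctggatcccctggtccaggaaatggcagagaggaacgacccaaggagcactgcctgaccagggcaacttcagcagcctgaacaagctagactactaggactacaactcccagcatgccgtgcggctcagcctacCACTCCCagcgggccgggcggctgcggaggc
Acer1 (chr17:56982127-56982376, minus strand): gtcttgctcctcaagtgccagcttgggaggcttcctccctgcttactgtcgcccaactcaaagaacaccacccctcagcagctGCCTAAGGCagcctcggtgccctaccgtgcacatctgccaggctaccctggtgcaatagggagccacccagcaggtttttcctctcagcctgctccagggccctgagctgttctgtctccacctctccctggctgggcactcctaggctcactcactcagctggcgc
All 10 genes had a window. The TFAP2 motif lay in 4 of the 10 windows (Elovl4, Degs2, Ugcg and Acer1), against 13.7% of all 32851 windows, and the KLF motif in 4 (Pnpla1, Cyp4f39, Ugcg and Slc27a4), against 26.1%. The fixed letters of the TFAP2 motif are all G or C. Its 4 windows held 69.6%, 69.2%, 80.4% and 61.6% G and C in the order named, against a median of 52.4% over all windows. Shares among windows of like G and C content were not counted. The STAT motif lay in 1 window, that of Sdr9c7, against 7.0%. AP-1, grainyhead-like and C/EBP motifs were in 0 of the 10 windows, and in 6.7%, 3.6% and 9.6% of all windows. Elovl4 and Degs2 each held 2 TFAP2 matches, beginning at positions -98 and -34 from the start in Elovl4 and at -218 and -45 in Degs2, although the mRNA of Degs2 rose throughout and that of Elovl4 did not. The windows of Cers3 and Abca12 held no match to any of the 6. These are letter matches in a short window and say nothing of binding.

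Per kilobase of exon, the level in imiquimod and sham ears spanned a wide range. In the day 8 libraries Elovl4, which lengthens very long acyl chains, was the highest of the 10 at 325 CPM per kb in imiquimod ears and 384 in sham ears. Slc27a4, also known as FATP4, an acyl-CoA synthetase that activates long chains, was next at 58.96 CPM per kb in imiquimod ears and 119 in sham ears. Acer1, the alkaline ceramidase of differentiated keratinocytes, stood at 44.1 and 79.1 CPM per kb in the same order. The 3 genes that were highest in sham ears were thus those that did not rise under imiquimod at day 8. The lowest was Degs2, the enzyme that hydroxylates the sphingoid base of ceramides to make phytoceramides, at 9.52 CPM per kb in imiquimod ears and 2.61 in sham ears. Exon lengths come from another build's annotation, GENCODE M21, so these levels give an order and no more.

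Imiquimod raised 7 of the 10 genes at every labelled day and in the start-day experiment: Cyp4f39, Degs2, Cers3, Pnpla1, Ugcg, Abca12 and Sdr9c7. Acer1 fell in all 4 comparisons, Slc27a4 fell in 3, and Elovl4 was higher at day 2 and lower at day 8. At day 2, 8 genes were higher and 1 lower, while 29.2% of all tested genes were called higher and 28.5% lower. At day 5 the counts were 7 higher and 2 lower, beside 34.6% and 35.9% of all genes, and at day 8 they were 7 and 3, beside 34.5% and 33.6%. The start-day experiment had 7 higher and 2 lower, beside 38.1% and 39.9%. The median log2 fold change over the 10 genes was 0.57, 0.75 and 0.67 at days 2, 5 and 8 and 1.73 in the start-day experiment, against -0.03, -0.04, -0.01 and -0.02 over all tested genes.

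**Figure D1:**
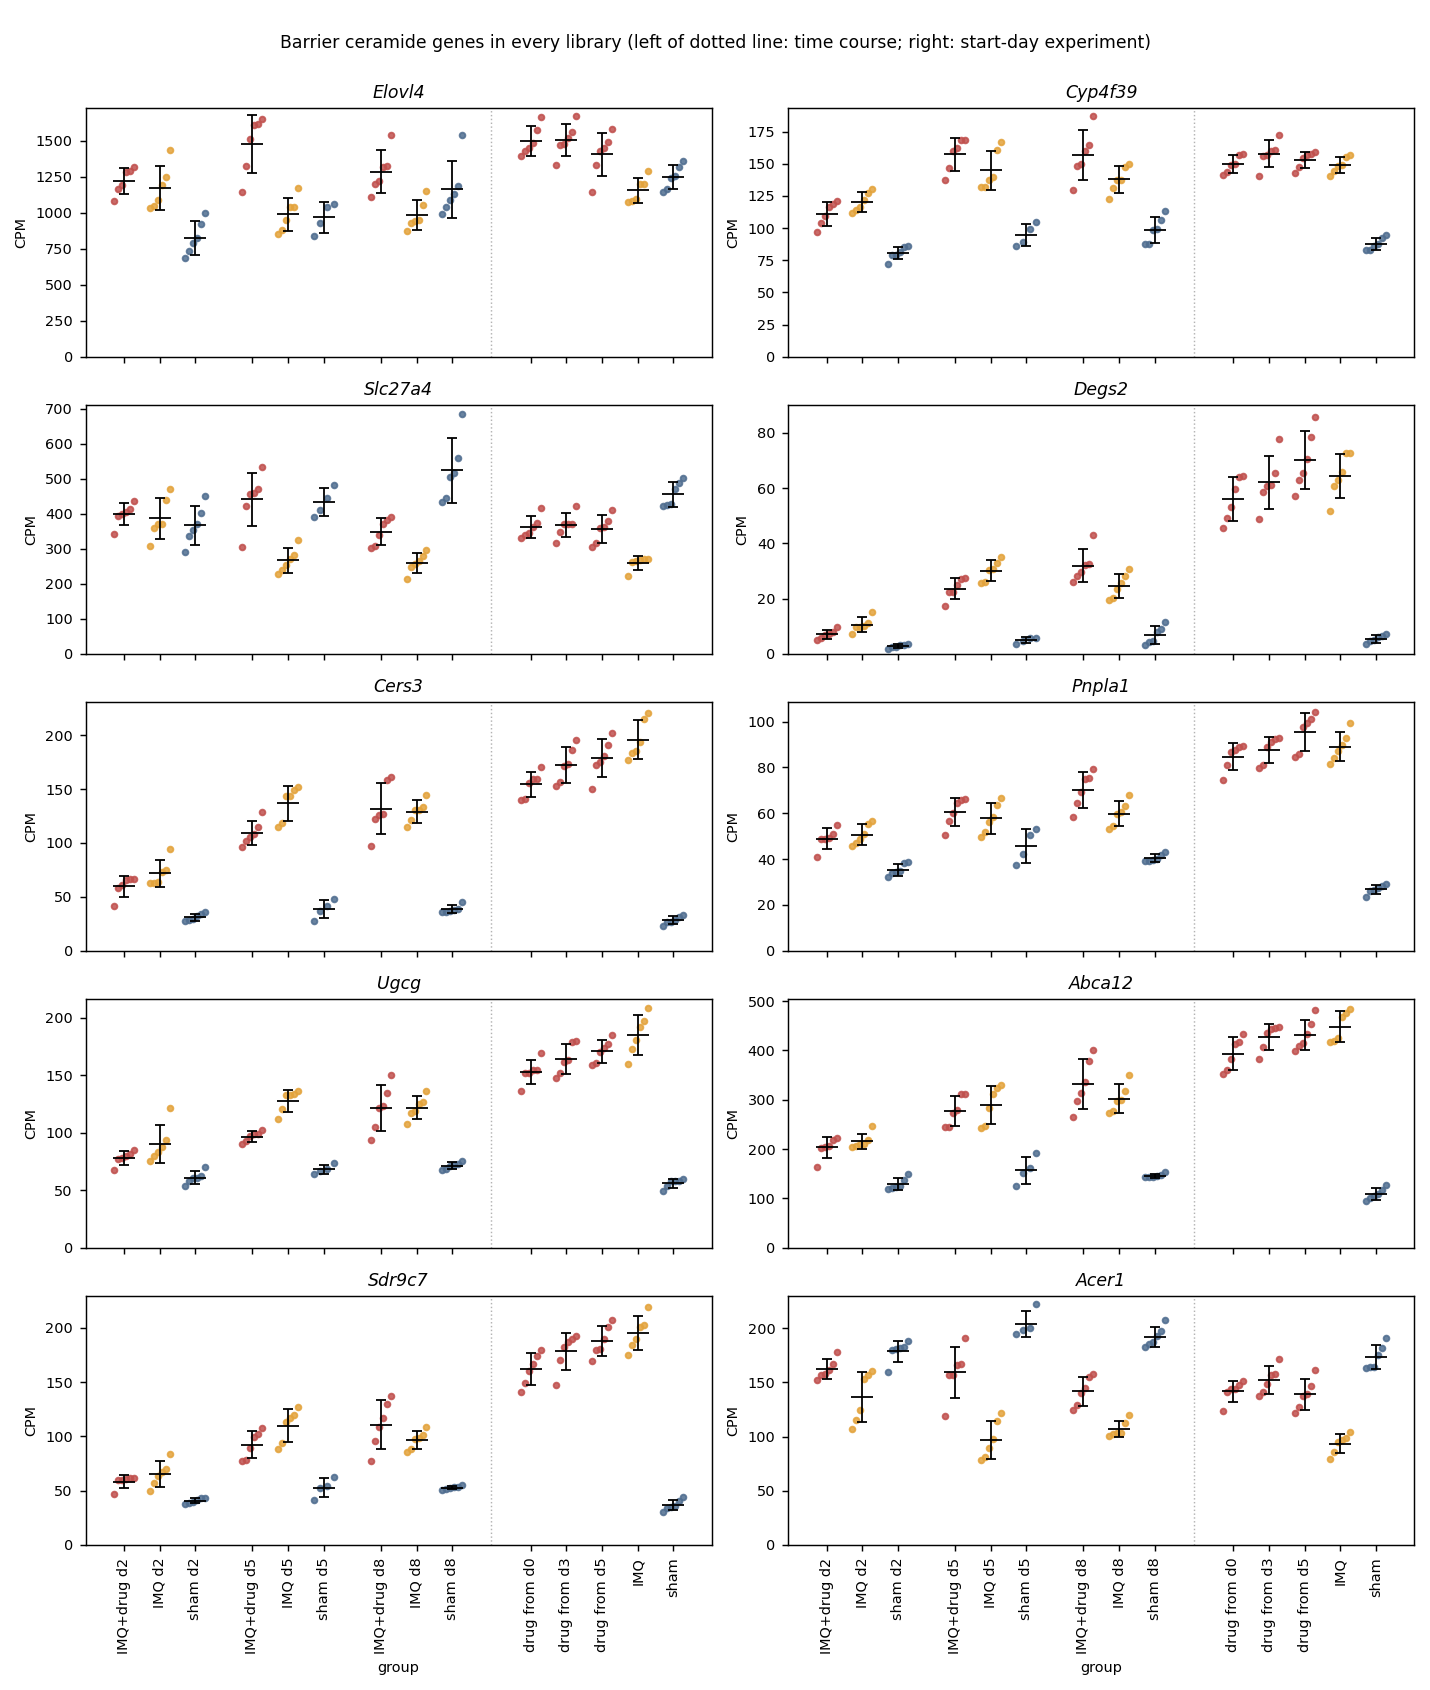
Levels of the 10 genes in CPM (vertical axes, from 0) in every library of the 14 groups (horizontal axis; red, imiquimod with IDOR-1117-2520; orange, imiquimod; blue, sham), with the group mean and SD as a bar. Cers3 lies at 177 to 220.5 CPM in the imiquimod libraries of the start-day experiment and at 22.9 to 33.7 CPM in its sham libraries, whereas Acer1 lies at 79.6 to 104 CPM in imiquimod and 164 to 191 CPM in sham.

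Among the genes that prepare the acyl chain, the 3 members behaved differently from each other. Cyp4f39, the mouse counterpart of human CYP4F22, hydroxylates the far end of the elongated chain. Its lowest, median and highest levels at day 8 were 123, 137 and 150.1 CPM in imiquimod ears, against 87.4, 99.01 and 113 CPM in sham ears. The groups did not overlap, and the log2 fold changes were 0.58 ± 0.07, 0.61 ± 0.08 and 0.48 ± 0.07 at days 2, 5 and 8 and 0.77 ± 0.04 in the start-day experiment (edgeR adjusted p = 1.63e-09, 3.4e-09, 6.82e-08 and 1.61e-17). Slc27a4 at day 2 had 307, 371 and 471 CPM in imiquimod ears and 291, 362 and 451 CPM in sham ears, groups that overlapped almost entirely (0.07 ± 0.11, adjusted p = 0.593). By day 8 every imiquimod library was below every sham library, at 214, 261 and 297 CPM in imiquimod ears against 433, 510.2 and 686 CPM in sham ears, a change of -1.01 ± 0.11 (adjusted p = 7.38e-11). The fall was -0.70 ± 0.12 at day 5 and -0.81 ± 0.07 in the start-day experiment (adjusted p = 2.74e-06 and 1.75e-11).

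Elovl4 rose at day 2, where imiquimod ears had 1031, 1141 and 1433 CPM and sham ears 687, 808 and 994 CPM without overlap (0.51 ± 0.10, edgeR adjusted p = 2.44e-05). At day 5 its means were 987 ± 117 CPM in imiquimod ears (SD, n = 6) and 967 ± 106 CPM in sham ears (SD, n = 4), a difference inside the spread (edgeR adjusted p = 0.824). At day 8 the groups overlapped, at 875, 945 and 1153 CPM in imiquimod ears against 993, 1109 and 1541 CPM in sham ears, and the difference of -0.24 ± 0.10 was just called (adjusted p = 0.0298). That call was lost without sham library 38, the highest of its group in Elovl4 and in sebocyte markers (adjusted p = 0.181), and without any one of imiquimod libraries 45, 46, 48 and 49 (0.051, 0.053, 0.0732 and 0.0577). The start-day experiment gave a difference of -0.11 ± 0.06 (adjusted p = 0.118).

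The genes that modify the base and join it to the chain rose most. Degs2 had 7.20, 9.89 and 15.3 CPM in imiquimod ears at day 2, against 1.80, 2.87 and 3.69 CPM in sham ears, and by day 8 19.5, 24.5 and 30.6 CPM in imiquimod ears against 3.12, 6.33 and 11.4 CPM in sham ears. In the start-day experiment it had 51.6, 64.5 and 72.8 CPM in imiquimod ears and 3.39, 5.57 and 7.33 CPM in sham ears. The groups were apart in each case, with log2 fold changes of 1.88 ± 0.22, 2.60 ± 0.23 and 1.85 ± 0.20 at days 2, 5 and 8 and 3.54 ± 0.15 in the start-day experiment, the last a 11.7-fold rise (edgeR adjusted p = 6.04e-10, 1.25e-13, 1.43e-11 and 6.02e-18). Cers3, the ceramide synthase that accepts ultra-long acyl chains, had 62.5, 68.3 and 94.7 CPM in imiquimod ears at day 2 and 27.5, 30.9 and 35.6 CPM in sham ears. At day 5 it had 115, 144 and 152 CPM in imiquimod ears, while the 4 sham libraries had 27.7, 36.98, 47.9 and 41.6 CPM. No imiquimod library of any day came down to the level of a sham library. The rise was 1.19 ± 0.12, 1.83 ± 0.14 and 1.74 ± 0.12 at the 3 days and 2.79 ± 0.09, or 6.94-fold, in the start-day experiment (adjusted p = 7.44e-12, 3.56e-16, 1.41e-17 and 5.09e-22).

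Pnpla1, which moves linoleate from triglyceride onto the ceramide and so completes the acylceramide, rose less in the time course. It had 53.1, 60.1 and 67.9 CPM in imiquimod ears at day 8 and 39.1, 39.7 and 43.2 CPM in sham ears. Pnpla1 in the start-day experiment had 81.4, 88.4 and 99.2 CPM in imiquimod ears and 23.7, 26.9 and 28.98 CPM in sham ears. The groups were separate in both, with changes of 0.56 ± 0.08 and 1.73 ± 0.06 (edgeR adjusted p = 1.96e-08 and 1.23e-22), while at day 5 they overlapped and differed by 0.34 ± 0.09 (adjusted p = 0.00078). At day 2 the change was 0.52 ± 0.08 (adjusted p = 2.71e-07).

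Ugcg makes glucosylceramide, the form in which the lipid is stored, and Abca12 pumps it into lamellar granules. Ugcg had 107, 122 and 136 CPM in imiquimod ears at day 8, against 68.01, 71.9 and 75.6 CPM in sham ears, and rose by 0.56 ± 0.08, 0.90 ± 0.09 and 0.77 ± 0.08 at days 2, 5 and 8. Abca12 had 273, 299 and 350.2 CPM in imiquimod ears at day 8 and 144, 145 and 153 CPM in sham ears, and rose by 0.74 ± 0.09, 0.88 ± 0.10 and 1.05 ± 0.09. Both were above every sham library in every imiquimod library at each day. In the start-day experiment Ugcg rose by 1.72 ± 0.06 and Abca12 by 2.04 ± 0.07 (edgeR adjusted p = 5.16e-22 and 1.87e-22). Sdr9c7, a dehydrogenase that acts on the oxidised linoleate before the ceramide is bound to the cornified envelope, had 175, 196 and 219.7 CPM in imiquimod ears there and 29.9, 35.6 and 43.9 CPM in sham ears. It rose by 2.42 ± 0.08 in that experiment and by 0.67 ± 0.11, 1.06 ± 0.13 and 0.87 ± 0.11 at the 3 days of the time course (adjusted p = 4.57e-21, 1.24e-06, 2.66e-10 and 1.58e-09).

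Acer1, which breaks ceramides down to sphingosine and a fatty acid, fell. At day 2 it had 107, 139 and 160.3 CPM in imiquimod ears and 159.7, 181 and 188 CPM in sham ears, groups that met at their edges. At day 5 imiquimod ears had 78.6, 93.8 and 121 CPM, and the 4 sham libraries 195, 200.2, 222 and 198 CPM. From day 5 on no libraries overlapped. The change was -0.39 ± 0.09, -1.07 ± 0.10 and -0.84 ± 0.09 at days 2, 5 and 8 and -0.89 ± 0.07 in the start-day experiment (edgeR adjusted p = 0.000259, 3.04e-13, 2.62e-11 and 2.23e-13).

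**Figure D2:**
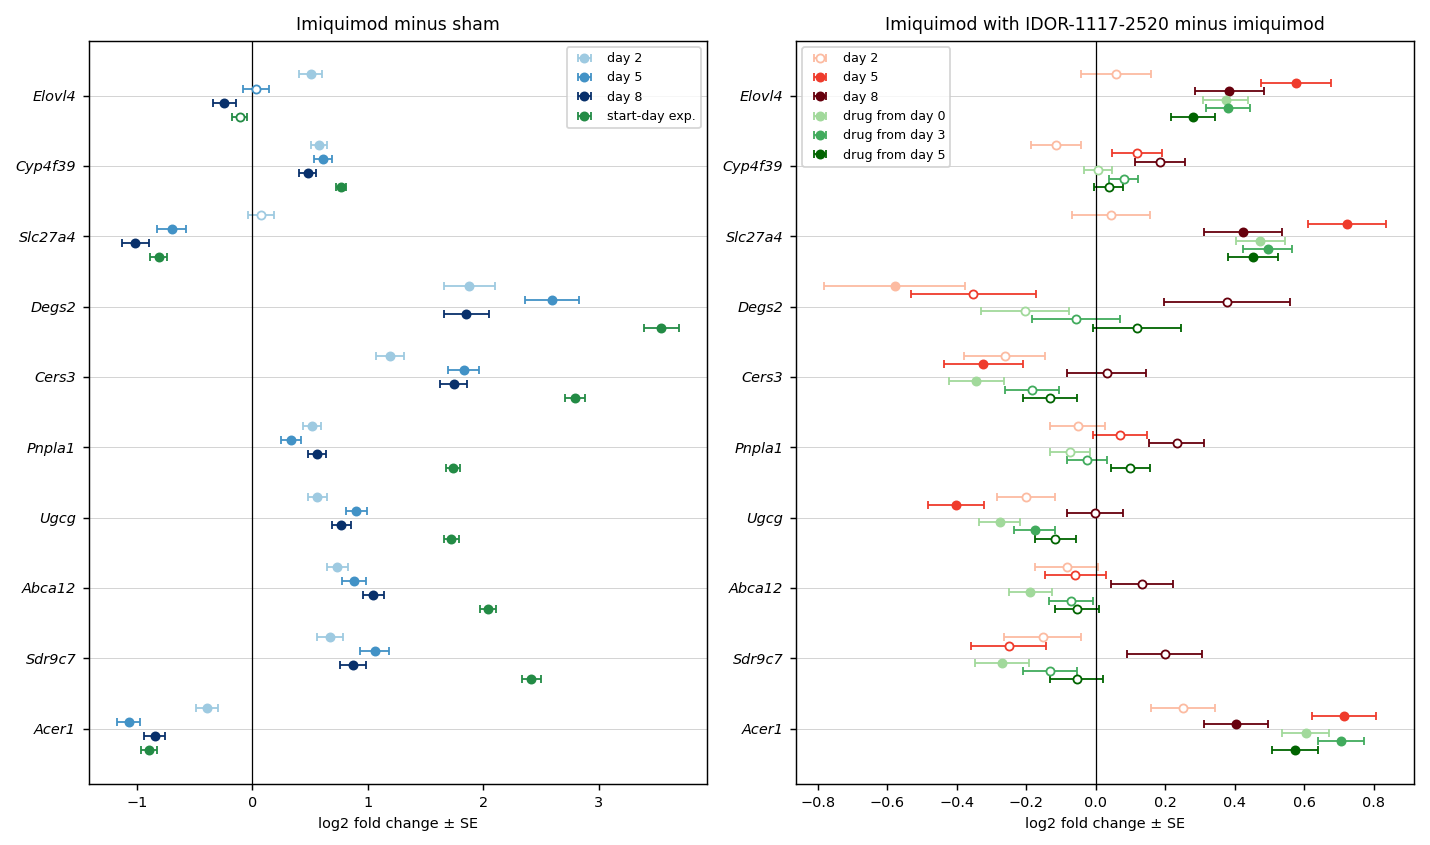
Log2 fold changes with SE (horizontal axis) of the 10 genes (vertical axis) for imiquimod minus sham (left) and for imiquimod with IDOR-1117-2520 minus imiquimod (right); filled points were called and open points were not. On the left 7 genes lie right of 0 in all 4 comparisons, and on the right Acer1, Slc27a4 and Elovl4 lie right of 0 from day 5 on and at all 3 start days.

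Whether the imiquimod effect changed between days was tested directly with a 2-degree-of-freedom edgeR F test. It was called for 4 of the 10 genes, beside 33.4% of all genes: Slc27a4 (adjusted p = 2.04e-06), Elovl4 (0.000166), Acer1 (0.000292) and Cers3 (0.00512). The imiquimod minus sham difference of Slc27a4 and Elovl4 was lower at each later day, that of Cers3 was larger at days 5 and 8 than at day 2, and that of Acer1 was lowest at day 5. Sham ears were not flat over the same days. The F test over the 3 sham groups was called for 6 of the 10, beside 5.52% of all genes: Degs2 (adjusted p = 0.000958), Elovl4 (0.00429), Slc27a4 (0.00917), Cyp4f39 (0.0168), Pnpla1 (0.0174) and Sdr9c7 (0.0437). In sham ears Elovl4 averaged 825 ± 115, 967 ± 106 and 1163 ± 197 CPM at days 2, 5 and 8 (SD, n = 6, 4 and 6), and Slc27a4 averaged 367 ± 55.5, 433 ± 40.1 and 524 ± 92.03 CPM. In imiquimod ears Elovl4 averaged 1173 ± 152, 987 ± 117 and 983 ± 102 CPM and Slc27a4 387 ± 59.6, 267 ± 35.1 and 260.1 ± 28.6 CPM (SD, n = 6 each), so the means of both genes were higher in sham ears and lower in imiquimod ears at later days. Among the sham calls, Sdr9c7 was lost without any one of 15 of the 16 libraries, all but library 19 (adjusted p 0.0507 to 0.097), Cyp4f39 without library 6 or 38 (0.0567 to 0.0623), Pnpla1 without library 21 or 22 (0.0713 to 0.0935) and Slc27a4 without library 38 (0.0597).

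Under IDOR-1117-2520 the called changes went both ways. Acer1, Slc27a4 and Elovl4 were higher in ears given imiquimod with the drug than in ears given imiquimod alone at day 5, at day 8 and with each of the 3 start days. Of the 7 genes that imiquimod raised, Ugcg and Cers3 were lower with the drug at day 5 and with the drug from day 0, and Pnpla1 and Cyp4f39 were called in none of the 6 comparisons. Within a day the drug and sham comparisons share their imiquimod libraries, and the 3 start-day comparisons share 1 imiquimod group, so their values are set side by side only.

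At day 2 the drug groups overlapped the imiquimod groups for all 10 genes. The share of all tested genes whose groups overlapped was not counted, here or in the other comparisons. Of the 10 genes none was called higher, beside 6.9% of all genes, and 1 was called lower, beside 9.61%. That 1 was Degs2, with 5.01, 7.02 and 9.54 CPM in ears given imiquimod with the drug and 7.20, 9.89 and 15.3 CPM in imiquimod ears (-0.58 ± 0.20, edgeR adjusted p = 0.0427). The call was lost without any one of imiquimod libraries 8, 9, 10 and 11 or drug libraries 13, 14, 15 and 18 (adjusted p 0.0597 to 0.163), and without the leukocyte-rich imiquimod libraries 9 and 11 together (0.334). Over all genes the 3100 calls of this comparison became 7 without those libraries. Acer1 differed by 0.25 ± 0.09 and was not called (adjusted p = 0.0503).

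At day 5, 3 genes were higher with the drug and 2 lower, beside 18.3% and 17.2% of all genes. Acer1 had 119, 161 and 191 CPM in ears given imiquimod with the drug and 78.6, 93.8 and 121 CPM in imiquimod ears, with a slight overlap (0.71 ± 0.09, edgeR adjusted p = 1.12e-07). Slc27a4 had 304, 458 and 532 CPM with the drug and 228, 262 and 325 CPM in imiquimod ears (0.72 ± 0.11, adjusted p = 2.78e-06). Here 1 drug library, 36, reached into the imiquimod range, as it did for Acer1 and Elovl4. Elovl4 had 1142, 1558 and 1649 CPM with the drug and 855, 992 and 1168 CPM in imiquimod ears (0.58 ± 0.10, adjusted p = 1.38e-05). Ugcg was the one gene whose groups were separate, at 90.2, 97.7 and 102 CPM with the drug and 112, 133 and 136 CPM in imiquimod ears (-0.40 ± 0.08, adjusted p = 0.000122). Cers3 averaged 109 ± 11.3 CPM with the drug and 137 ± 16.2 CPM in imiquimod ears (SD, n = 6 each), a change of -0.32 ± 0.11 (edgeR adjusted p = 0.022) that was not called without imiquimod library 30 (0.0531) or drug library 32 (0.061), nor with no filter on low counts (0.0554). Without drug library 36 the same 5 genes were called, with log2 fold changes and adjusted p of 0.79 (2.11e-09) for Acer1, 0.81 (7.08e-08) for Slc27a4, 0.64 (1.35e-06) for Elovl4, -0.40 (0.000208) for Ugcg and -0.30 (0.0402) for Cers3. With all libraries Sdr9c7 was not called (-0.25 ± 0.11, edgeR adjusted p = 0.0638). It was called under DESeq2 (0.0329), voom (0.0345) and RLE scaling (0.0424), and without any one of 4 libraries (0.0249 to 0.0482). Degs2 was not called either (-0.35 ± 0.18, 0.126), but was under voom (0.0231) and with the compared groups alone (0.0225).

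At day 8 few genes of the whole table were called between the drug and imiquimod, 1.22% higher and 0.335% lower, and 3 of the 10 genes were among the higher ones. Acer1 had 124, 142 and 158 CPM with the drug and 100.3, 103 and 120.1 CPM in imiquimod ears (0.40 ± 0.09, edgeR adjusted p = 0.0155). Slc27a4 had 302, 355 and 392 CPM with the drug and 214, 261 and 297 CPM in imiquimod ears (0.42 ± 0.11, adjusted p = 0.0368). Neither gene's groups overlapped. Elovl4, whose groups did overlap, had 1111, 1268 and 1537 CPM with the drug and 875, 945 and 1153 CPM in imiquimod ears (0.39 ± 0.10, adjusted p = 0.0326). These calls lie close to the threshold. That for Acer1 was lost without drug library 52 or 54 (adjusted p 0.0518 to 0.0564), that for Elovl4 without any one of imiquimod libraries 45, 46, 48 and 49 or drug libraries 52, 54 and 56 (0.0731 to 0.0897), and that for Slc27a4 without any one of imiquimod libraries 45, 46, 47, 48 and 49 or drug libraries 52, 54 and 56 (0.0531 to 0.12). With no filter on low counts Elovl4 and Slc27a4 were not called (0.0773 and 0.0833). The means of Ugcg and Cers3 differed by less than the spread between libraries, 122 ± 20.2 CPM with the drug against 122 ± 10.01 CPM in imiquimod ears for Ugcg, and 132 ± 24.03 CPM with the drug against 129 ± 10.5 CPM in imiquimod ears for Cers3 (SD, n = 6 each).

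A test of the drug effect itself across the 3 days was called for 4 of the 10 genes, beside 7.99% of all genes: Slc27a4 (edgeR adjusted p = 0.0175), Degs2 (0.0372), Elovl4 (0.0386) and Acer1 (0.0419). For Slc27a4, Elovl4 and Acer1 the difference was largest at day 5, while that of Degs2 was -0.58 at day 2, -0.35 at day 5 and 0.38 at day 8. Slc27a4 was called whichever library of the drug and imiquimod groups was left out. Ugcg, at 0.0539, was called without any one of 10 libraries (0.0112 to 0.0498), among them drug library 36 of day 5 (0.0454). It was also called in 5 other settings (0.0125 to 0.0497). Cyp4f39, at 0.0895, was called without drug library 36 of day 5 (0.049) or 51 of day 8 (0.0293). Sdr9c7, at 0.0917, was called without drug library 51 (0.0183) and under DESeq2 (0.0402). Acer1 was not called without any one of imiquimod libraries 7, 10 and 12 of day 2 and 25, 27, 29 and 30 of day 5, or drug libraries 14, 15, 16 and 18 of day 2, 31, 32, 34 and 35 of day 5 and 53 and 55 of day 8 (adjusted p 0.051 to 0.101). Elovl4 was not called without any one of imiquimod libraries 10 and 11 of day 2 and 25, 27 and 30 of day 5, or drug libraries 13, 15 and 18 of day 2, 31, 32, 33 and 34 of day 5 and 53 of day 8 (0.0518 to 0.0726). Degs2 was not called without any one of imiquimod libraries 11 of day 2, 25 and 30 of day 5 and 46, 48 and 49 of day 8, or drug libraries 13 and 15 of day 2, 32 of day 5 and 53 and 55 of day 8 (0.051 to 0.0881).

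With the 3 start days the same 3 genes were each called higher, beside 18.2%, 18% and 15% of all genes for the drug from days 0, 3 and 5. Acer1 had 123, 144 and 151 CPM with the drug from day 0, 137, 153 and 172 CPM from day 3 and 121, 139 and 161 CPM from day 5, against 79.6, 95.9 and 104 CPM in imiquimod ears. Slc27a4 had 332, 353 and 416 CPM from day 0, 317, 370.1 and 422 CPM from day 3 and 306, 362 and 412 CPM from day 5, against 221, 267 and 272 CPM in imiquimod ears. Every drug library of these 2 genes lay above every imiquimod library. Acer1 differed by 0.60 ± 0.07, 0.71 ± 0.07 and 0.57 ± 0.07 for the 3 start days (edgeR adjusted p = 1.1e-07, 2.29e-08 and 1.13e-06). Slc27a4 differed by 0.47 ± 0.07, 0.50 ± 0.07 and 0.45 ± 0.07 (adjusted p = 8.09e-06, 5.54e-06 and 3.16e-05). Elovl4 had 1389.9, 1466 and 1667 CPM from day 0, 1330.1, 1496 and 1668 CPM from day 3 and 1144, 1438 and 1583 CPM from day 5, against 1074, 1145 and 1288 CPM in imiquimod ears, and only the group from day 5 overlapped. It differed by 0.37 ± 0.06, 0.38 ± 0.06 and 0.28 ± 0.06 (adjusted p = 3.34e-05, 3.02e-05 and 0.00132).

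The counts of genes called lower with the drug were 4, 1 and 0 for starts on days 0, 3 and 5, beside 16.9%, 16.4% and 12.7% of all genes. With the drug from day 0, Cers3 had 140.1, 157 and 170.5 CPM and imiquimod ears 177, 189 and 220.5 CPM, with no overlap (-0.34 ± 0.08, edgeR adjusted p = 0.00105). Ugcg (-0.28 ± 0.06, adjusted p = 0.000414), Sdr9c7 (-0.27 ± 0.08, 0.00668) and Abca12 (-0.19 ± 0.06, 0.0193) were lower by less and overlapped. The call for Abca12 was lost without imiquimod library 11 or drug library 28 or 30 (0.0543 to 0.0569). From day 3 the 1 gene was Ugcg (-0.18 ± 0.06, adjusted p = 0.0192), a call lost without imiquimod library 11 or drug library 22 or 23 (0.0527 to 0.069). From day 3 Cers3 differed by -0.18 ± 0.08 (edgeR adjusted p = 0.0714) and was not called. It was called under DESeq2 (0.0395), under voom (0.0188) and with the compared groups alone (0.0491). The same held without imiquimod library 12 (0.0462) or drug library 21 (0.032). From day 5 Cers3 differed by -0.13 ± 0.08 (0.228) and Ugcg by -0.12 ± 0.06 (0.148), the latter called without imiquimod library 12 (0.0403). No gene of the 10 was called in the F test between the 3 start days (edgeR, smallest adjusted p = 0.421), which called 0.00542% of all genes, 1 gene in all. Of all genes 1669 had an unadjusted p under 0.05 in that test, and DESeq2 called 130.

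Set against sham, ears given imiquimod with the drug differed in most of the 10 genes. At days 2, 5 and 8, 8, 9 and 9 genes were called, beside 44.2%, 60.3% and 66.8% of all genes in either direction, and all 10 were called for each start day, beside 74.3%, 74.7% and 75.5%. Slc27a4 was not called at day 5, at 441 ± 76.3 CPM in ears given imiquimod with the drug (SD, n = 6) and 433 ± 40.1 CPM in sham ears (SD, n = 4), with an edgeR adjusted p of 0.863. It was below sham at day 8 (-0.59 ± 0.11, adjusted p = 1.12e-05) and with the drug from days 0, 3 and 5 (-0.34 ± 0.07, -0.31 ± 0.07 and -0.36 ± 0.07). Acer1 was below sham at day 5 (-0.36 ± 0.10, 0.00208) and day 8 (-0.44 ± 0.09, 3.6e-05). Elovl4 was above sham, by 0.61 ± 0.11 on day 5 (9.19e-06) and 0.26 ± 0.06 with the drug from day 0 (0.000439), but was not called at day 8 (0.14 ± 0.10, 0.203). Imiquimod without the drug was not called against sham for Elovl4 at day 5 (0.03 ± 0.11, edgeR adjusted p = 0.824) or in the start-day experiment (-0.11 ± 0.06, 0.118). There its difference from sham was thus seen only with the drug. At day 2 Slc27a4 (0.12 ± 0.11, 0.413) and Acer1 (-0.14 ± 0.09, 0.214) were not called. With the drug from day 5 the call for Elovl4 at 0.17 ± 0.06 (0.0163) was lost without drug library 13 (0.0549). Degs2 stayed far from sham, 4.70-fold higher at day 8 and 10.1-fold higher with the drug from day 0, and Cers3 was 3.43-fold and 5.47-fold higher.

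The members also varied together between libraries of 1 group. Correlations of the deviations from the group mean (log2 CPM, all groups of an experiment) fell into blocks in both experiments. Cyp4f39 was less clearly part of 1 block in the time course. Abca12 went with Sdr9c7 (r = 0.83 over 52 libraries of the time course and 0.92 over 30 of the start-day experiment), with Cers3 (0.84 and 0.86) and with Pnpla1 (0.84 and 0.81). Elovl4 went with Slc27a4 (0.80 and 0.80) and with Cyp4f39 (0.79 and 0.77), although Cyp4f39 was among the genes that imiquimod raised. With Cers3, Pnpla1, Ugcg, Abca12 and Sdr9c7, r was -0.21 to 0.21 for Slc27a4 in the time course and -0.10 to 0.22 in the start-day experiment. Over the same 5 genes it was 0.07 to 0.45 and 0.09 to 0.26 for Elovl4, and 0.35 to 0.65 and 0.15 to 0.44 for Cyp4f39. Acer1 went with Slc27a4 (0.64 and 0.54) and against Ugcg (-0.34 and -0.50). The points share depth and scaling within a library, and these values describe the libraries.

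**Figure D3:**
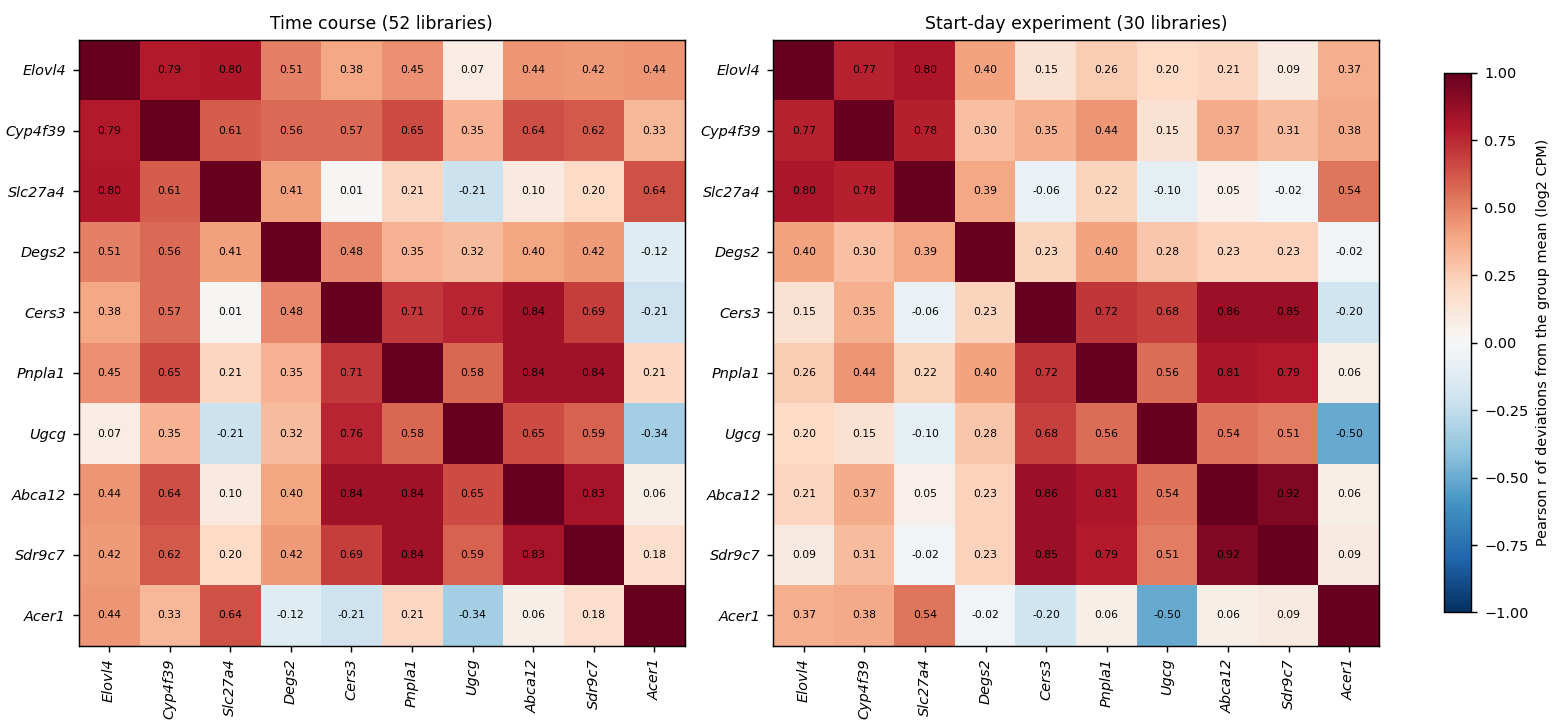
Pearson correlation of each pair of the 10 genes (both axes) over libraries, after the group mean of log2 CPM was taken away, in the time course (left) and the start-day experiment (right). A red block joins Cers3, Pnpla1, Ugcg, Abca12 and Sdr9c7, and another joins Elovl4, Cyp4f39 and Slc27a4. In the time course Cyp4f39 also goes with Pnpla1, Abca12 and Sdr9c7 (r = 0.65, 0.64 and 0.62), beside 0.61 with Slc27a4.

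Genes outside the 10 were named by likeness alone, as the 2 with the highest correlation of log2 CPM over the 52 libraries of the time course, group differences included, with r over the 30 libraries of the start-day experiment beside it. Cers3 was most like Blmh (r = 0.990 and 0.996) and Trex2 (r = 0.988 and 0.996), Abca12 like Map2k4 (r = 0.978 and 0.977) and Dsc1 (r = 0.978 and 0.994), and Pnpla1 like Gsdma (r = 0.950 and 0.987) and Alox12b (r = 0.950 and 0.990). Alox12b is the lipoxygenase that oxidises the linoleate of acylceramides, and Dsc1 is a desmosomal cadherin of the upper epidermis. Sdr9c7 was most like Dnm2 (r = 0.966 and 0.986) and Ptk6 (r = 0.964 and 0.993), Degs2 like Tuba8 (r = 0.956 and 0.978) and Twf1 (r = 0.956 and 0.991), and Ugcg like Fam43a (r = 0.969 and 0.987) and Tmem50b (r = 0.964 and 0.968). Cyp4f39 was most like Cptp (r = 0.963 and 0.985) and Aldh3b2 (r = 0.962 and 0.982). The others had different neighbours. Elovl4 was most like Hsd17b12 (r = 0.950 and 0.824), the ketoreductase of the same elongation cycle, and Krt79 (r = 0.908 and 0.877), a keratin. Of the genes most like Slc27a4, Fa2h (r = 0.964 and 0.962) is the fatty acid 2-hydroxylase. Acer1 was most like Susd2 (r = 0.964 and 0.926) and Il20rb (r = 0.960 and 0.949).

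Markers of another lipid-making cell moved with the block of Elovl4 and Slc27a4. The sebocyte list (Mc5r, Awat1, Awat2, Dgat2l6, Scd3, Far2 and Cidea, genes of sebum synthesis and sebaceous glands) had none of its 7 genes at 0 in any group. Under imiquimod 1 was called higher and 5 lower at day 8, and 0 and 5 in the start-day experiment. With the drug, 6 were higher at day 5, 5 at day 8, and 6, 6 and 7 with the drug from days 0, 3 and 5, and none was lower. Their summed level at day 8 was 303 to 452 CPM in ears given imiquimod with the drug, 179 to 297 CPM in imiquimod ears and 545 to 846 CPM in sham ears. At day 5 it was 383 to 656, 193 to 335 and 497 to 584 CPM in the same order of groups, and at day 2 420.1 to 533, 388 to 594 and 397 to 549 CPM. In the start-day experiment it was 313 to 442, 291 to 431 and 171 to 426 CPM with the drug from days 0, 3 and 5, 134 to 171 CPM in imiquimod ears and 616 to 749 CPM in sham ears. Thus the marker sum was lower in imiquimod ears at days 5 and 8, as Slc27a4 and Acer1 were, and higher again with the drug.

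Within groups the deviations of the marker sum went with those of Elovl4 (r = 0.85 in the time course, n = 52, and 0.86 in the start-day experiment, n = 30), Slc27a4 (0.86 and 0.77), Acer1 (0.64 and 0.53) and Cyp4f39 (0.55 and 0.60). For Cers3, Abca12, Pnpla1, Sdr9c7, Ugcg and Degs2 r lay between -0.21 and 0.21. Across groups Elovl4 did not follow the sum: imiquimod ears of the start-day experiment held 1074 to 1288 CPM of Elovl4 at marker sums of 134 to 171 CPM, and sham ears 1143 to 1359 CPM at sums of 616 to 749 CPM. With the granular keratinocyte markers r was 0.76 and 0.58 for Acer1, 0.59 and 0.46 for Slc27a4 and 0.49 and 0.40 for Elovl4. This was not particular to these 3 genes, with 0.53 and 0.66 for Pnpla1, 0.56 and 0.59 for Sdr9c7, 0.47 and 0.47 for Cyp4f39 and 0.39 and 0.59 for Abca12. It was 0.19 and 0.47 for Degs2, 0.11 and 0.38 for Cers3 and -0.04 and 0.11 for Ugcg. Acer1, Slc27a4 and Elovl4 went against the leukocyte markers, at -0.80 and -0.63 for Acer1, -0.59 and -0.62 for Slc27a4 and -0.41 and -0.47 for Elovl4. At day 5 the leukocyte sum was 97.00 to 284 CPM in ears given imiquimod with the drug, 262 to 426 CPM in imiquimod ears and 62.4 to 75.5 CPM in sham ears. Adipocyte markers (Adipoq, Plin1, Cidec and Lep) moved across groups in the same directions, with 4 of 4 lower under imiquimod at day 8 and 4 of 4 higher with the drug at day 5, and summed levels at day 5 of 50.5 to 106 CPM in ears given imiquimod with the drug, 31.2 to 45.5 CPM in imiquimod ears and 100.3 to 129 CPM in sham ears. Their deviations within groups had r of 0.55 and 0.40 with Acer1, 0.13 and 0.00 with Elovl4, and 0.36 and 0.19 with Slc27a4. Of 5 skeletal muscle markers, 5 were lower under imiquimod at day 8 and 5 higher with the drug from day 0. The part of sebocytes, leukocytes, fat or muscle in these results was not tested.

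**Figure D4:**
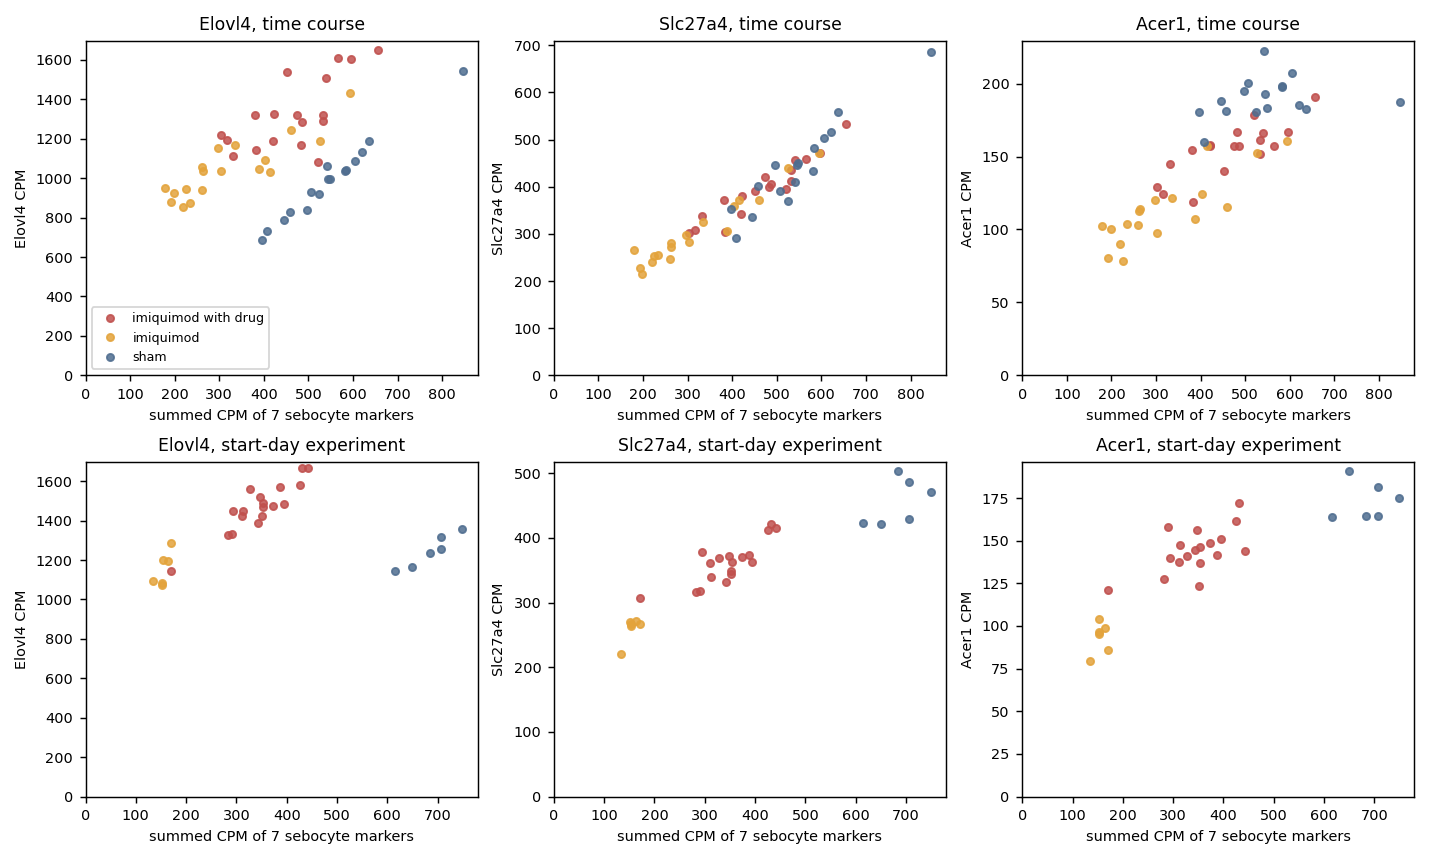
Levels of Elovl4, Slc27a4 and Acer1 in CPM (vertical axes) against the summed CPM of 7 sebocyte markers (horizontal axes), 1 point for each library, in the time course (top) and the start-day experiment (bottom); red, imiquimod with IDOR-1117-2520; orange, imiquimod; blue, sham. Slc27a4 follows the marker sum across groups. For Elovl4 most sham libraries of the time course lie below imiquimod-treated libraries with a like marker sum. In the start-day experiment the sums of treated libraries end at 442 CPM and those of sham begin at 616 CPM, so no such libraries can be compared.

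Markers of the keratinocyte layer in which barrier ceramides are made were compared too. Of 6 granular keratinocyte markers (Flg, Flg2, Lor, Ivl, Cdsn and Hrnr), 2 were called higher and 3 lower under imiquimod at day 8, and 5 higher and 1 lower in the start-day experiment, where the 7 raised members rose more than at day 8, a difference between experiments that was not tested. With the drug, 6 of the 6 were higher at day 5, 3 at day 8, and 4, 4 and 5 with the drug from days 0, 3 and 5. Their summed level in the start-day experiment was 7178 to 11888, 8242 to 13379.5 and 8695 to 13649 CPM with the drug from days 0, 3 and 5, 3791 to 7743 CPM in imiquimod ears and 1700.0 to 2643 CPM in sham ears. Markers of other layers and of division moved under imiquimod as well. The spinous sum at day 8 was 33592 to 41696 CPM in imiquimod ears and 13656 to 15264 CPM in sham ears, the basal sum 24340.4 to 29168 and 14229 to 17020.4 CPM, and the sum of 4 cycling cell markers 504.3 to 666 and 124 to 191 CPM. In imiquimod and sham ears of the start-day experiment the spinous sums were 25044 to 38695 and 9075 to 11773 CPM, the basal sums 23256 to 27206 and 12459 to 13634 CPM and the cycling sums 498 to 535 and 112 to 158 CPM. In both, 3 of 5 spinous markers were called higher and 2 lower, 3 of 6 basal markers higher and 3 lower, and 4 of 4 cycling markers higher. With the drug from day 0, Cers3, Ugcg, Abca12 and Sdr9c7 were called lower and 4 of the 6 granular markers higher. The part of these layers in the rise of the 7 genes, or in their differences with the drug, was not tested.

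Other genes of the pathway were followed in lists drawn up by function, of each of which up to 4 members are named by smallest adjusted p. The counts of every list are to be read beside the shares of all tested genes called. Under imiquimod these were 34.5% higher and 33.6% lower at day 8, and 38.1% and 39.9% in the start-day experiment. At day 2 they were 29.2% and 28.5%, and at day 5 34.6% and 35.9%. With the drug they were 18.3% and 17.2% at day 5, and 18.2% and 16.9% from day 0. Of 10 genes that act beside the members on acylceramides and the lipid envelope, 7 were higher and 3 lower under imiquimod at day 8, as at day 5, and 6 were higher and 1 lower at day 2. Day 8 gave a median log2 fold change of 0.69, while in the start-day experiment 8 were higher and 2 lower, with a median of 1.73, against medians of all tested genes of -0.01 and -0.02. Sult2b1, which makes cholesterol sulfate, rose by 1.87 ± 0.09 at day 8 and 2.56 ± 0.06 in the start-day experiment. Ephx3, an epoxide hydrolase of the linoleate pathway, rose by 1.26 ± 0.09 and 1.87 ± 0.06, and Nipal4, a membrane protein linked to ichthyosis, by 1.04 ± 0.10 and 1.91 ± 0.08. Pnpla2, the triglyceride lipase ATGL, was lower (-0.92 ± 0.08 and -1.10 ± 0.04). With the drug Fa2h, the neighbour of Slc27a4 above, was 1.26 ± 0.17 higher at day 5 and 1.64 ± 0.18 from day 0 (edgeR adjusted p = 2.77e-07 and 2.47e-07), whereas Tgm1, the transglutaminase of the cornified envelope, was lower (-0.55 ± 0.13 and -0.45 ± 0.09). Of this list 4 were higher and 2 lower with the drug at day 5, and 4 and 5 from day 0.

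The other ceramide synthases were mostly lower under imiquimod, unlike Cers3. Of 5, none was higher and 4 were lower under imiquimod at day 8, and 1 was higher and 4 lower in the start-day experiment, with medians of -0.89 and -1.48. Cers5 fell (-1.08 ± 0.06 and -1.48 ± 0.06), as did Cers4, a synthase expressed in sebaceous glands and hair follicles (-0.89 ± 0.14 and -1.60 ± 0.14). With the drug Cers4 was higher at day 5 (1.08 ± 0.14, edgeR adjusted p = 2.77e-07) and from day 0 (1.17 ± 0.14, 9.12e-07), the opposite direction from Cers3. Of the list 2 were higher and 1 lower at day 5, and 2 and 1 from day 0.

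Among 10 genes of sphingoid base and de novo ceramide synthesis, 4 were higher and 3 lower under imiquimod at day 8. Degs1, the desaturase that completes common ceramides, rose by 1.46 ± 0.06, and Sptlc2, a subunit of serine palmitoyltransferase, by 0.95 ± 0.06. Sptlc1, another of its subunits, rose by 0.54 ± 0.05, and Ormdl3, one of the proteins that hold the enzyme back, was lower (-0.74 ± 0.06). With the drug at day 5 5 were higher and 2 lower, led by Kdsr, the reductase of the next step (0.73 ± 0.09). Of 11 fatty acid elongation genes tested, 5 were higher and 5 lower under imiquimod at day 8, with Elovl7 (0.84 ± 0.08) and Hacd4 (1.27 ± 0.12) higher and Elovl5 (-1.49 ± 0.08) and Hacd2 (-1.15 ± 0.09) lower. With the drug at day 5, 7 of the 11 were higher and 2 lower, among them Elovl6 (1.18 ± 0.15), Tecr (0.66 ± 0.07) and Hacd2 (0.75 ± 0.09), beside Elovl4.

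Of 13 genes of ceramide breakdown and conversion, 6 were higher and 5 lower at day 8 under imiquimod, and 5 and 5 with the drug at day 5. Acer3, a ceramidase related to Acer1, fell with imiquimod at day 8 (-0.72 ± 0.07), and Acer2, another, was higher with the drug at day 5 (0.68 ± 0.08). Of the relatives of Slc27a4, Slc27a1 fell with imiquimod (-0.63 ± 0.07) and was higher with the drug at day 5 (0.36 ± 0.07), and Slc27a3 rose with imiquimod (0.63 ± 0.10). Among the relatives of Cyp4f39, Cyp4f17 (-1.03 ± 0.10) and Cyp4f13 (-0.78 ± 0.08) fell and Cyp4f18 rose (2.80 ± 0.33) at day 8. The median log2 fold change with the drug at day 5 was 0.23 for the sphingoid base list and 0.22 for the elongation list, against 0.02 for all tested genes.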

How the data were processed

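RNA from 82 ear punches was sequenced as mRNA libraries (Universal Plus mRNA kit, per the labels' protocols). The authors deposited a table of estimated counts for each experiment (52 and 30 libraries), named as salmon gene counts on build GRCm39, per the submitters' processing notes and the file headers. For salmon's version, the annotation and the strand setting, nothing was given in the sources used here. In these deposited estimated counts, 11.1% and 12.5% of the values were fractional, and each value was rounded to the nearest whole number. Libraries of the time course held 13.1 M to 35.4 M counts and those of the start-day experiment 24.1 M to 35.5 M, and no pair of libraries of a group agreed within sampling noise.

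The 2 experiments were fitted separately (edgeR 4.0.16, R 4.3.3). Genes passed filterByExpr (18780 and 18434 tested), were scaled by TMM, and were tested by robust quasi-likelihood F tests with 1 coefficient per group and all groups in 1 fit, with Benjamini-Hochberg adjustment over all tested genes. Groups came from the labels. The 10 genes, the pathway lists and the marker lists were chosen with earlier results of these data known. All 10 genes are named. Of each pathway list, up to 4 genes are named by smallest adjusted p, and for each of the 10 genes the 2 most correlated genes over the time course. One gene that this rule names is not reported here. Correlations use log2 CPM with a prior count of 2. Alternatives were DESeq2 1.42.0, limma 3.58.1 voom with sample weights, RLE scaling, no filter, a filter of 1 CPM in 4 libraries, a fit of the compared groups alone, a log2 fold change of 1 as a further requirement, each library left out in turn, and imiquimod libraries 9 and 11 of day 2 left out. The fits were tested on simulated data. Promoter windows came from RefSeq (GRCm38.p6) and were searched for motifs with Python 3.11.15.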

Additional observations from a re-analysis of the deposited data

Results flagged for a closer look

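In 140 groups of 1 gene in 4 to 6 libraries, 8 libraries lay far from the others of their group, and chance alone flags about 1 group in 20. Drug library 13 of day 2 accounts for 3 of them, with the lowest Abca12 (164 CPM), Cers3 (41.2 CPM) and Sdr9c7 (47.1 CPM) of its group. Imiquimod library 11 of day 2, which also stood apart in leukocyte markers, had the highest Abca12 (246 CPM). Sham library 38 of day 8 had the highest Cers3 (45.5 CPM) and the highest sebocyte marker sum of its group (846 CPM). Acer1 was lowest in library 29 of the group given the drug from day 0 (123 CPM) and in sham library 6 of day 2 (159.7 CPM), and Slc27a4 in imiquimod library 8 of the start-day experiment (221 CPM).

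The imiquimod effect differed between days 2, 5 and 8 in edgeR's F test for Slc27a4 (adjusted p = 2.04e-06), Elovl4 (0.000166), Acer1 (0.000292) and Cers3 (0.00512). The drug effect differed between the same days for Slc27a4 (adjusted p = 0.0175), Degs2 (0.0372), Elovl4 (0.0386) and Acer1 (0.0419).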

How the results depend on the processing

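No result of the 10 genes reversed: of 2860 refits of 160 fold changes, 0 changed the sign of a called value, and 26 did so where neither fit made a call. The comparison of the drug with imiquimod at day 2 was the least stable, with 1 of the 10 genes called, against 2 under DESeq2 and under the filter of 1 CPM, and 0 under voom, with no filter, with the compared groups alone and without imiquimod libraries 9 and 11. Leaving out 1 library gave 0 to 2. At day 8 the 3 calls became 1 with no filter and 0 to 4 with 1 library left out. Of the 4 genes whose drug effect differed between days, 1 was left with no filter, and 1 to 7 with 1 library left out. The 6 calls between sham days became 3 to 7. Requiring a log2 fold change of 1 as well left 0 calls in each of the 6 drug comparisons. It left 2, 4 and 4 for imiquimod at days 2, 5 and 8. For imiquimod with the drug against sham it left 1, 2 and 4 at those days, and 6 for each start day. How many of all tested genes met both requirements was not counted, so these counts have no background share beside them. The cause of the changes between settings was not tested.

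Over all genes, the drug comparison of day 2 called 3100 genes, 0 with the compared groups alone and 7 without libraries 9 and 11, with 1416 to 3889 when 1 library was left out. At day 8 it called 293, against 525 with DESeq2, 820 with voom, 147 with no filter, and 93 to 426 with 1 library left out. The drug effect across days gave 1500 genes, 703 with no filter, 692 with the compared groups alone and 782 to 2788 with 1 library left out, the highest without drug library 36 of day 5, and sham days gave 1036, against 1797 with voom, 620 with no filter and 465 to 1173. Between start days the count was 1, against 130 with DESeq2, 6 with no filter, 2 with voom, RLE scaling or the filter of 1 CPM, and 0 with the compared groups alone. No paired analysis was possible because the groups of an experiment share no replicate numbers. Degs2, at 1.80 to 3.69 CPM in sham ears of day 2, was the shallowest gene.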
